A study of Mus musculus with 16 samples.

Results

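Expression of 5 genes of the imprinted Dlk1-Dio3 locus was followed in cultured mouse pluripotent cells: Dlk1, Rtl1, Meg3, Rian and Mirg. They were taken by symbol from a table of read counts, 5 of its 34042 gene rows. Their values were not part of the rule, but earlier results of these data were known when they were chosen. The table held 16 bulk RNA sequencing libraries of total RNA from 5 cell lines. FS cells, the formative stem cells of the labels, came from 2 lines grown in A3XR medium: 5ar1 at passages 10, 12 and 14, and 5ar3 at passages 4, 5 and 12. EpiSC, epiblast stem cells with a primed state of pluripotency, came from line AFX6 in AFX medium (passages 5, 8 and 12) and line AF32 in AF medium (passages 13, 14 and 15). ES cells, naive embryonic stem cells, came from line E14IV-C in 2iL medium at passages 12, 13, 15 and 20. The labels name no allele, treatment, strain or sex for any group. Every replicate was a passage of its line, so the p-values measure only the spread between passages, and outside FS the line, the medium and the cell state cannot be told apart. The reads were not assigned to parental alleles, so each value is the sum over both chromosomes.

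The locus lies on mouse chromosome 12 and is read differently from the copies inherited from the father and the mother. The paternal chromosome expresses the protein-coding genes Dlk1, Rtl1 and Dio3. The maternal chromosome expresses Meg3, Rian and Mirg, long noncoding RNAs in 1 direction, with clusters of small nucleolar RNAs (snoRNAs) and microRNAs among them. A differentially methylated region between Dlk1 and Meg3 sets this pattern. Its maternal, unmethylated state is needed for the noncoding RNAs, and their silencing in some cultured pluripotent lines is known from other work. Dlk1 encodes a membrane protein related to Notch ligands, Rtl1 a retrotransposon-derived protein needed in the placenta, and Dio3 the deiodinase that inactivates thyroid hormone.

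In the GENCODE annotation of GRCm38, the build that the submitters' processing notes name as mm10, Dlk1 (ENSMUSG00000040856) lies at chr12:109452823-109463336 on the plus strand. Meg3 (ENSMUSG00000021268) lies at chr12:109541001-109571726, and the Dlk1 start is at -88.2 kb from the Meg3 start. Rtl1 (ENSMUSG00000085925) lies at chr12:109589193-109600330 on the minus strand, opposite to all the others. Rian (ENSMUSG00000097451) lies at chr12:109603940-109661716 and Mirg (ENSMUSG00000097391) at chr12:109729764-109749460. Dio3, the far end of the locus, lies at chr12:110279068-110281097.

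The Meg3 promoter is shown because the noncoding RNAs downstream of it moved with Meg3 in part of the comparisons below. RefSeq gives 2 start windows for Meg3 on GRCm38.p6, and the one shown is the upstream one. It runs from 250 bases before to 50 bases after the start, chr12:109540746-109541045, plus strand. Its capitals mark 2 motifs, each searched on both strands.
Meg3 promoter: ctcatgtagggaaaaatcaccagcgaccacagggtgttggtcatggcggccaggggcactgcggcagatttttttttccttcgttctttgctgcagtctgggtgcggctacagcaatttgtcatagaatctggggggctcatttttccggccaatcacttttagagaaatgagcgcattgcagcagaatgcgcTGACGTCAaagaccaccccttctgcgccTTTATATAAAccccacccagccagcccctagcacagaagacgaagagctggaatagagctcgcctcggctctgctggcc
The first capitals are the cyclic AMP response element TGACGTCA, a palindrome, whose first base lies 57 bases before the start. It occurred in 1.79% of 32851 RefSeq promoters of the same length. The second capitals hold the TATA box letters TATAAA on the sense strand, 25 bases before the start, overlapping a match on the antisense strand. TATAAA occurred on either strand in 13.6% of the promoters and on the sense strand in 8.32%. Both motifs occurred together in 56 promoters, or 0.171%. The upstream Meg3 window held 13 CpG sites, against a median of 7 over all promoters. The second Meg3 window, chr12:109545148-109545447, held 1 CpG site and neither motif, and the Dlk1 window held 9 CpG sites and neither motif. The window at the RefSeq start of Rian held no CpG site, as did 5.43% of promoters. A match describes letters only, and binding or methylation was not measured here.

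MicroRNAs of the locus are shown because 6 of them are encoded inside the Rtl1 exon on the opposite strand, and because rows of the other 3 stood among those that differed between lines. The mature RefSeq sequences follow 5′ to 3′, with the seed (bases 2 to 8), which pairs with target messages, in capitals.
miR-431-5p: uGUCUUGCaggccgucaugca
miR-433-3p: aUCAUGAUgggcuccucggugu
miR-127-3p: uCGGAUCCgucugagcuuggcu
miR-434-3p: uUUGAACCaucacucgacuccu
miR-432: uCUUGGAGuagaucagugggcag
miR-136-5p: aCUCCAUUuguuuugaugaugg
miR-540-3p: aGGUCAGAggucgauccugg
miR-3070-3p: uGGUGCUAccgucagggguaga
miR-3070-2-3p: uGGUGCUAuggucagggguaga
The first 6, miR-431 to miR-136, lie opposite Rtl1, and no seed is shared among the 6 shown. The pair miR-3070-3p and miR-3070-2-3p shares the seed GGUGCUA, and their precursors are near-identical, so the counts of their rows are uncertain. Of 53 microRNA rows of the locus in the table, 51 had a mature RefSeq sequence. The 95 distinct mature names of these rows held 88 distinct seeds, with 7 seeds shared by 2 names each.

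Total counts ranged from 22069338 to 33290250 per library. The mitochondrial ribosomal RNA mt-Rnr2, an abundant transcript, took 9.96% to 38.1% of the counts of a library, with the highest share in ES passage 12 and 17.7% to 18.97% in the other ES libraries. Values below are CPM, the usual count normalised to library size, on sizes scaled by the trimmed mean of M values (TMM), with scaling factors from 0.625 to 1.19. The labelled cell types were checked with marker genes. The summed level of 6 naive markers was 2224 to 3471 CPM in the ES libraries and 4.43 to 12.8 CPM in all others. The summed level of 5 formative or primed epiblast markers was 39.7 to 103 CPM in ES and 840 to 2254 CPM in the other lines.

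All 3 maternal noncoding RNAs were present in all 16 libraries, and no line lacked them. The lowest library values were 57.2 CPM for Meg3, 416 CPM for Rian and 62.2 CPM for Mirg. Dlk1 set the lines apart most: FS line 5ar3 had more of it than any other line, while the ES libraries together held 1 read of it. Differences were tested with edgeR's quasi-likelihood test in 10 pairs of lines, on 18555 genes that passed a filter on low counts, and a call required a p under 0.05 after Benjamini-Hochberg adjustment. Rtl1 did not pass the filter, so 4 of the 5 genes were tested. Against ES, 3 of the 4 (Dlk1, Meg3 and Rian) were called higher in FS 5ar1, where 56.8% of all tested genes were called and 29.9% were higher. The same 3 were called higher in FS 5ar3, with 61% of all genes called and 32.1% higher, and in EpiSC AF32, with 58.6% called and 30.7% higher. In EpiSC AFX6, 1 of the 4 (Dlk1) was called higher than in ES, with 56.6% of all genes called and 29.4% higher.

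Between the lines other than ES, fewer of the 4 genes were called. The FS lines differed in 1 (Dlk1), with 3.88% of all genes called. FS 5ar3 against EpiSC AFX6 gave 2 (Dlk1 and Rian, with 9.11% of all genes called) and against EpiSC AF32 gave 1 (Dlk1, with 16.5% called). FS 5ar1 against EpiSC AFX6 gave 0, with 4.13% of all genes called, 3 of the 4 at an unadjusted p under 0.05 and 1 (Rian) called by DESeq2. FS 5ar1 against EpiSC AF32 gave 0, with 17.2% of all genes called, 1 of the 4 at an unadjusted p under 0.05 and 0 by DESeq2. EpiSC AFX6 against EpiSC AF32 gave 0, with 6.61% of all genes called, 2 of the 4 at an unadjusted p under 0.05 and 0 by DESeq2. The 4 comparisons with ES share its 4 libraries.

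**Figure D1:**
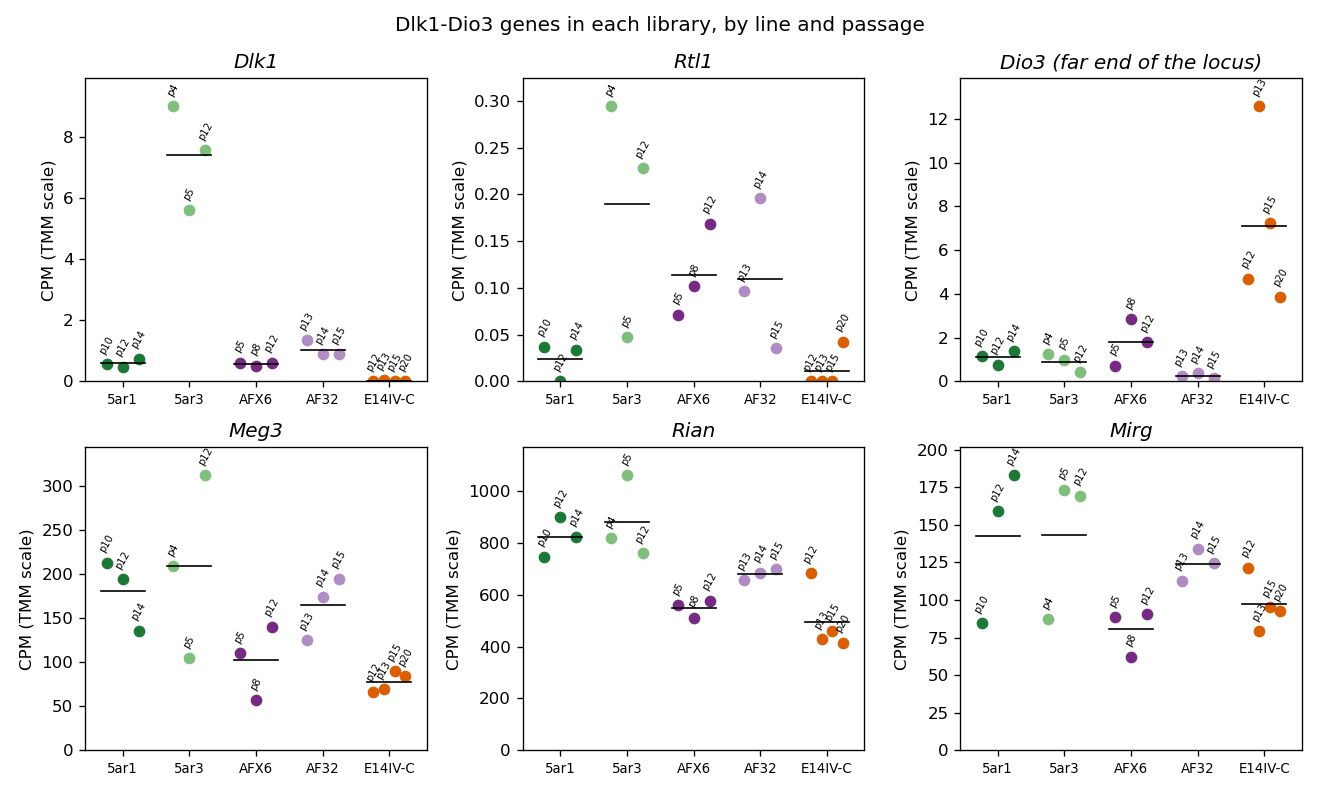
Level of each gene in each library (TMM-scaled CPM, vertical axes, linear and different for each gene) by line, with each point labelled by its passage and a black bar at the line mean. Dlk1 points of FS 5ar3 lie between 5.61 and 9.03 CPM, above all points of the other lines, whereas Meg3, Rian and Mirg are present in every library.

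Meg3, the maternal RNA nearest to the methylated region, had its lowest line mean in ES. Its level in FS 5ar1 was 213, 195 and 136 CPM at passages 10, 12 and 14, and in FS 5ar3 it was 209, 105 and 313 CPM at passages 4, 5 and 12. EpiSC AFX6 had 110, 57.2 and 141 CPM at passages 5, 8 and 12, and EpiSC AF32 had 125, 175 and 195 CPM at passages 13, 14 and 15. ES had 66.5, 69.7, 89.9 and 84.6 CPM at passages 12, 13, 15 and 20. Each library of both FS lines and of EpiSC AF32 lay above all 4 ES libraries, while EpiSC AFX6 at passage 8 lay below them. The log2 fold change over ES was 1.22 in FS 5ar1 (SE 0.31, adjusted p = 0.00311), 1.43 in FS 5ar3 (SE 0.31, adjusted p = 0.000843) and 1.08 in EpiSC AF32 (SE 0.31, adjusted p = 0.0069). In EpiSC AFX6 it was 0.40 (SE 0.31, adjusted p = 0.291). FS 5ar3 exceeded EpiSC AFX6 by 1.03 (SE 0.34, adjusted p = 0.0717), which was called without 5ar3 passage 5 (1.35, adjusted p = 0.0159) or AFX6 passage 12 (1.32, adjusted p = 0.0387). Ordered by mean, the lines ran FS 5ar3 (209 ± 104, SD, n = 3), FS 5ar1 (181 ± 40.4, n = 3), EpiSC AF32 (165 ± 36.1, n = 3), EpiSC AFX6 (103 ± 42.2, n = 3) and ES (77.7 ± 11.3, n = 4), and no neighbours in this order were called different.

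Rian, a host of snoRNAs, was the most abundant of the 5 per length. Its median over the libraries was 84.5 CPM per kb of the longest annotated transcript, against 27.2 for Mirg, 8.96 for Meg3, 0.130 for Dlk1 and 0.00705 for Rtl1. Per kb of all annotated exons merged, the medians lay closer, at 37.5 for Rian, 14.3 for Mirg, 7.20 for Meg3 and 0.107 for Dlk1. By mean CPM Rian ranked 103 among the 34042 rows. In FS 5ar1 its level was 747, 900 and 824 CPM at passages 10, 12 and 14, and in FS 5ar3 it was 819, 1062 and 759 CPM at passages 4, 5 and 12. EpiSC AFX6 had 561, 511 and 577 CPM at passages 5, 8 and 12, and EpiSC AF32 had 657, 685 and 699 CPM at passages 13, 14 and 15. ES had 683 CPM at passage 12 and 428, 461 and 416 CPM at passages 13, 15 and 20. The FS libraries lay above all EpiSC and ES libraries, and ES passage 12 lay within the range of EpiSC AF32.

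The log2 fold change of Rian over ES was 0.73 in FS 5ar1 (SE 0.17, adjusted p = 0.00124), 0.83 in FS 5ar3 (SE 0.17, adjusted p = 0.000395) and 0.45 in EpiSC AF32 (SE 0.17, adjusted p = 0.0272). The AF32 call was lost when AF32 passage 14 or 15, or ES passage 13, 15 or 20, was left out, with adjusted p up to 0.084. EpiSC AFX6 differed from ES by 0.15 (SE 0.17, adjusted p = 0.477). It was called without ES passage 12, at 0.34 (adjusted p = 0.0225). FS 5ar3 exceeded EpiSC AFX6 by 0.68 (SE 0.18, adjusted p = 0.0238), a call lost without 5ar3 passage 5 or AFX6 passage 5 or 8, with adjusted p up to 0.128. FS 5ar1 against EpiSC AFX6 gave 0.58 (SE 0.18, adjusted p = 0.0816) and was not called.

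Mirg, the RNA that carries microRNAs of the distal cluster, was called in none of the 10 comparisons by edgeR. In 5 of them its unadjusted p was under 0.05, and DESeq2 called it in FS 5ar3 over EpiSC AFX6 (adjusted p = 0.0383). Its level in FS 5ar1 was 84.5, 159 and 183 CPM at passages 10, 12 and 14, and in FS 5ar3 it was 87.2, 173 and 169 CPM at passages 4, 5 and 12. EpiSC AFX6 had 88.5, 62.2 and 90.4 CPM at passages 5, 8 and 12, and EpiSC AF32 had 113, 134 and 125 CPM at passages 13, 14 and 15. ES had 121, 79.4, 95.3 and 92.7 CPM at passages 12, 13, 15 and 20. The earliest passage of each FS line lay within the ES range, and the other 4 FS libraries lay above all EpiSC and ES libraries. The log2 fold change over ES was 0.55 in FS 5ar1 (SE 0.25, adjusted p = 0.0758) and 0.56 in FS 5ar3 (SE 0.25, adjusted p = 0.0668). Both were called without ES passage 12, at 0.66 (adjusted p = 0.0458) and 0.69 (adjusted p = 0.036), and without passage 10 of 5ar1 (0.79, adjusted p = 0.00929) or passage 4 of 5ar3 (0.82, adjusted p = 0.00883). Over EpiSC AFX6 the values were 0.82 in FS 5ar1 (SE 0.28, adjusted p = 0.114) and 0.83 in FS 5ar3 (SE 0.28, adjusted p = 0.0711). The first was called without passage 10 of 5ar1 (1.07, adjusted p = 0.0234) and the second without passage 4 of 5ar3 (1.09, adjusted p = 0.0166).

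The 3 maternal RNAs did not keep a fixed ratio. Rian counts per Meg3 count ranged from 2.43 in FS 5ar3 passage 12 to 10.1 in passage 5 of the same line and 10.3 in ES passage 12, with a mean of 5.50 ± 2.34 (SD, n = 16). Mirg counts per Rian count varied less in proportion, from 0.106 to 0.223 (0.174 ± 0.037, SD, n = 16). Over the 16 libraries, which share their scaling, log2 CPM of Rian and Mirg had a Pearson r of 0.71 and a Spearman rho of 0.64. The values were 0.58 and 0.62 for Meg3 with Rian, and 0.46 and 0.28 for Meg3 with Mirg. Deviations from the line means gave an r of 0.54 for Rian with Mirg and -0.33 for Meg3 with Rian. These are descriptions over 16 libraries from 5 lines.

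The mt-Rnr2 share moved with Meg3. In 4 of the 5 lines the library with the highest share was the lowest in Meg3: FS 5ar3 passage 5 (24.2%), EpiSC AFX6 passage 8 (25.0%), EpiSC AF32 passage 13 (21.5%) and ES passage 12 (38.1%). FS 5ar1, with its highest share of 13.6% at passage 12, was the exception. Deviations from line means in log2 share had an r of -0.64 with Meg3, 0.76 with Rian, 0.09 with Mirg and -0.36 with Dlk1. Without the library of highest share in each line, Meg3 over ES was 1.08 in FS 5ar1 (adjusted p = 0.00258), 1.67 in FS 5ar3 (adjusted p = 0.000136) and 1.18 in EpiSC AF32 (adjusted p = 0.00139). EpiSC AFX6 was then called over ES as well, in Meg3 (0.63, adjusted p = 0.0399) and in Rian (0.40, adjusted p = 0.0107), whereas the Rian call of FS 5ar3 over EpiSC AFX6 was lost (0.45, adjusted p = 0.0907). This alternative was chosen after seeing the data, and the part of the share in the within-line spread was not tested.

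**Figure D2:**
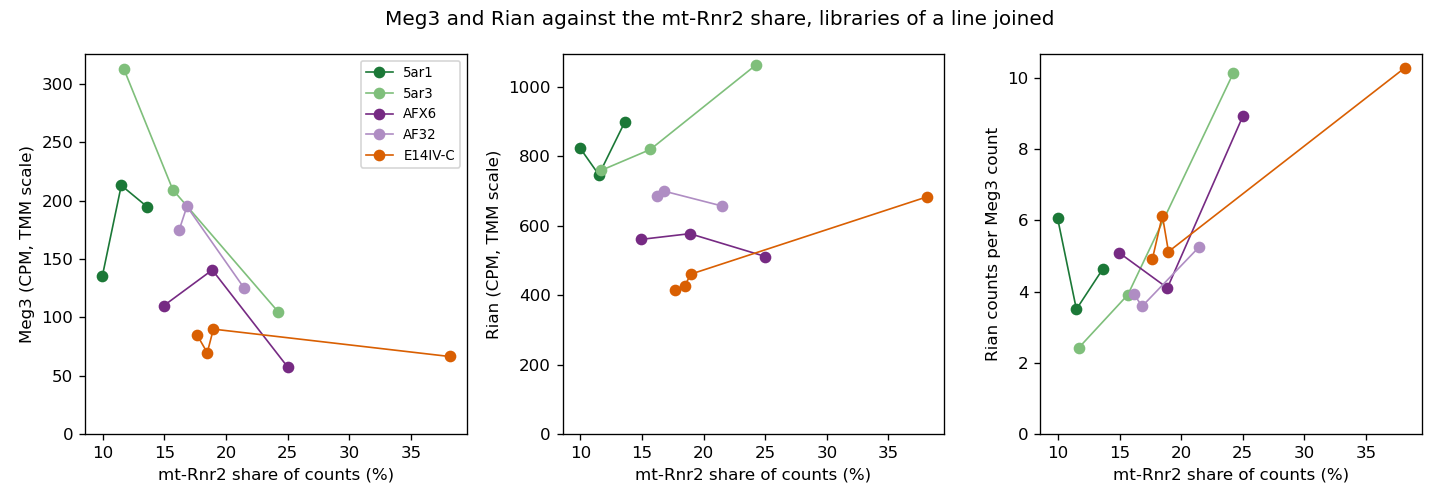
Meg3 (CPM), Rian (CPM) and Rian counts per Meg3 count against the percentage of a library's counts from mt-Rnr2, 1 point per library, with libraries of a line joined. Within 4 lines the library farthest to the right has the lowest Meg3, and ES passage 12, at 38.1%, has the highest ratio, 10.3.

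Dlk1, the paternally expressed membrane protein gene at the near end of the locus, had its highest level in FS 5ar3 and its lowest in ES. In FS 5ar3 its level was 9.03, 5.61 and 7.57 CPM (245, 119 and 199 counts) at passages 4, 5 and 12. In FS 5ar1, grown in the same medium, it was 0.556, 0.478 and 0.745 CPM at passages 10, 12 and 14. EpiSC AFX6 had 0.607, 0.508 and 0.607 CPM at passages 5, 8 and 12, and EpiSC AF32 had 1.35, 0.882 and 0.885 CPM at passages 13, 14 and 15. The ES libraries had no Dlk1 count at passages 12, 15 and 20 and 1 count (0.0452 CPM) at passage 13. The 3 libraries of 5ar3 lay above all others, the ES libraries below all others, and the remaining lines between 0.478 and 1.35 CPM.

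FS 5ar1 had less Dlk1 than FS 5ar3 by 12.4-fold (log2 fold change -3.63, SE 0.36, adjusted p = 1.97e-05). FS 5ar3 exceeded EpiSC AFX6 by 12.8-fold (3.68, SE 0.36, adjusted p = 9.88e-06) and EpiSC AF32 by 7.09-fold (2.83, SE 0.34, adjusted p = 3.91e-05). The lower lines were not called different: FS 5ar1 against EpiSC AFX6 gave 0.05 (SE 0.37, adjusted p = 0.979), against EpiSC AF32 -0.81 (SE 0.36, adjusted p = 0.138), and EpiSC AFX6 against EpiSC AF32 -0.85 (SE 0.36, adjusted p = 0.186). All 4 lines were called over ES, with adjusted p from 4.44e-10 in 5ar3 to 3.15e-06 in AFX6. Since ES held 1 count, the size is given as a ratio of rates with an exact 95% interval for counting error: 48.6 (8.34 to 1954) for FS 5ar1, 619 (111 to 24496) for FS 5ar3, 47.1 (8.07 to 1897) for EpiSC AFX6 and 85.8 (15.02 to 3423) for EpiSC AF32. The intervals overlap, because the single ES count limits them all.

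In bulk RNA, fewer cells that express Dlk1 and less Dlk1 RNA per cell cannot be told apart. Markers of other cell types were read in the same libraries. Sox1, a neural transcription factor, had 22.9 ± 4.44 CPM in FS 5ar3 (SD, n = 3), 1.18 ± 0.129 in FS 5ar1, 0.944 ± 1.01 in EpiSC AFX6, 6.46 ± 3.57 in EpiSC AF32 and 1.35 ± 0.757 in ES (n = 4). Pax6, another neural factor, had 4.26 ± 0.848 CPM in FS 5ar3 and 1.21 ± 0.301 in FS 5ar1. The summed level of the 3 neuroectoderm markers, mostly Nes, was 212 to 353 CPM in FS 5ar3 and 191 to 402 CPM in FS 5ar1. It was 375 to 665 CPM in EpiSC AFX6, 271 to 508 in EpiSC AF32 and 21.99 to 31.4 in ES, and none of the 3 was at or under 3 counts throughout a line. The 8 fibroblast or feeder markers summed to 27.0 to 34.7 CPM in FS 5ar3, 17.4 to 22.9 in FS 5ar1, 12.8 to 20.9 in EpiSC AFX6, 33.4 to 80.2 in EpiSC AF32 and 0.587 to 1.11 in ES. Of these, Lum was at or under 3 counts in every library of both FS lines, AFX6 and ES, Postn in those of 5ar1 and ES, and Col3a1, Dcn and Twist2 in those of ES. The 6 primitive streak and endoderm markers summed to 334 to 800 CPM in EpiSC AF32 and 15.3 to 153 in EpiSC AFX6. They summed to 16.5 to 42.3 CPM in FS 5ar1, 36.3 to 52.98 in FS 5ar3 and 7.72 to 14.7 in ES. The 5 extraembryonic endoderm markers summed to 24.3 to 65.1 CPM in EpiSC AF32 and 2.92 to 21.5 across the other lines. Cer1 in ES and Sox7 in EpiSC AFX6 were at or under 3 counts in every library. The 6 trophoblast markers summed to 38.8 to 133 CPM in EpiSC AF32, mostly Eomes, and 46.9 to 65.9 in ES, mostly Tfap2c. They summed to 23.4 to 45.4 CPM in FS 5ar1, 34.6 to 52.0 in FS 5ar3 and 16.6 to 29.4 in EpiSC AFX6. Elf5 was at or under 3 counts throughout all lines but EpiSC AF32, Cdx2 throughout FS 5ar3 and EpiSC AFX6, and Gata3 throughout ES. The 4 core pluripotency markers summed to 800 to 1163 CPM in FS 5ar3 and 1152 to 1638 in FS 5ar1. They summed to 1123 to 1195 CPM in EpiSC AFX6, 928 to 1019 in EpiSC AF32 and 1853 to 2045 in ES. The part of other cell types in the Dlk1 and Dio3 values was not tested.

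**Figure D3:**
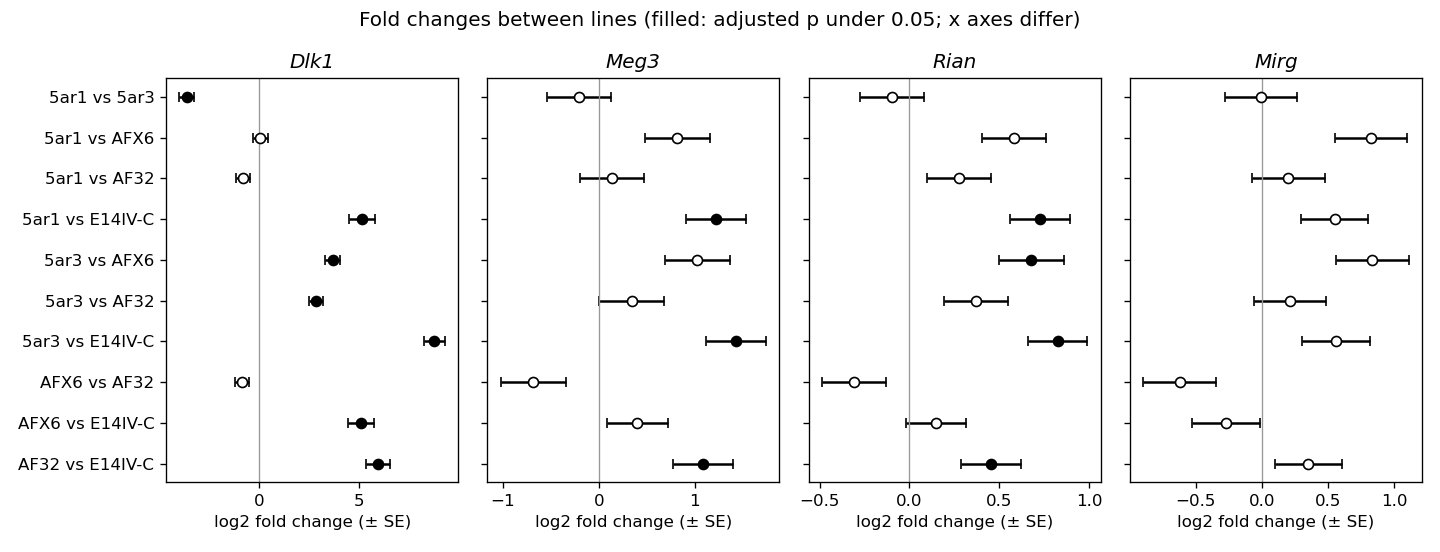
Log2 fold change (horizontal axes, first line minus second, ranges differ between panels) with its standard error for Dlk1, Meg3, Rian and Mirg in the 10 comparisons of lines; filled points had an adjusted p under 0.05. Dlk1 is filled in the comparisons that involve FS 5ar3 or ES, and Mirg in none.

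Rtl1, the paternally expressed retrotransposon-derived gene, was close to absent in all lines. It had 38 counts in all 16 libraries together, and 12 libraries had at least 1. In FS 5ar3 it had 8, 1 and 6 counts at passages 4, 5 and 12, and in FS 5ar1 1, 0 and 1 at passages 10, 12 and 14. EpiSC AFX6 had 2, 3 and 5 counts at passages 5, 8 and 12, EpiSC AF32 had 3, 6 and 1 at passages 13, 14 and 15, and ES had 0, 0, 0 and 1 at passages 12, 13, 15 and 20. Most of these counts were at or under 3, so differences between lines were largely not detectable at this depth. The ratio of rates over ES was 16.5 (exact 95% interval 2.54 to 694) for FS 5ar3, 9.42 (1.34 to 409) for EpiSC AFX6, 9.12 (1.30 to 396) for EpiSC AF32 and 1.87 (0.0972 to 110) for FS 5ar1. With no filter on low counts, the fit called Rtl1 for FS 5ar3 over ES (adjusted p = 0.0141) and in none of the other 9 comparisons (adjusted p from 0.0732 to 1).

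The 6 microRNA rows opposite the Rtl1 exon summed to 110 to 581 counts per library, above the 0 to 8 counts of Rtl1 itself. Their summed level was 14.7 ± 5.87 CPM in FS 5ar1 (SD, n = 3), 14.8 ± 6.67 in FS 5ar3, 7.17 ± 1.07 in EpiSC AFX6, 9.51 ± 0.922 in EpiSC AF32 and 7.20 ± 0.744 in ES (n = 4). The library kit is directional, but the strand setting of the counting is not given in the sources used here. At most a few reads of the opposite RNA can have been counted for Rtl1, given its 0 to 8 counts. Whether any of these few counts came from the opposite strand was not tested.

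Dio3, the deiodinase gene at the far end, had its highest level in ES, where Dlk1 had its lowest. ES had 4.70, 12.6, 7.24 and 3.87 CPM at passages 12, 13, 15 and 20. FS 5ar1 had 1.15, 0.765 and 1.39 CPM at passages 10, 12 and 14, and FS 5ar3 had 1.25, 0.989 and 0.419 CPM at passages 4, 5 and 12. EpiSC AFX6 had 0.714, 2.85 and 1.79 CPM at passages 5, 8 and 12, and EpiSC AF32 had 0.225, 0.360 and 0.142 CPM at passages 13, 14 and 15. No library of another line reached the lowest ES library. Dio3 was called lower than in ES in all 4 lines, with log2 fold changes of -2.69 (SE 0.52, adjusted p = 0.00028) in FS 5ar1, -2.9997 (SE 0.53, adjusted p = 0.000124) in FS 5ar3, -1.99 (SE 0.50, adjusted p = 0.00251) in EpiSC AFX6 and -4.84 (SE 0.61, adjusted p = 3.41e-06) in EpiSC AF32. EpiSC AF32 was called lower than EpiSC AFX6 (adjusted p = 0.00875) and FS 5ar1 (adjusted p = 0.0235). The first call was lost without AFX6 passage 8 (adjusted p = 0.0546) and with passage as a covariate (log2 fold change 2.46, adjusted p = 0.0603), where the passages of these lines, 5 to 12 and 13 to 15, do not overlap. The second was lost without 5ar1 passage 14 or AF32 passage 13 or 15 (adjusted p up to 0.0937). Both calls were also lost without the library of highest mt-Rnr2 share in each line (adjusted p = 0.212 and 0.108).

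The annotation holds 118 genes from Dlk1 to Dio3, over 828 kb, and 79 of them had a row; the others are not analysed here. Besides the 5 genes, these were 53 microRNA rows, 14 snoRNA rows and 7 others including Dio3, of which 36, 13 and 5 passed the filter. In the annotation, 13 of the microRNA rows lie inside Meg3, Rian or Mirg on the same strand, and 5 of the snoRNA rows inside Rian. Such rows count fragments that overlap a small annotated gene in a long-RNA library. They cannot be told apart from the unprocessed host RNA and do not measure mature microRNAs. The filter can pass a row on the counts of a single line. Mir493, for example, had 10 to 12 counts in FS 5ar1 and 0 to 1 in ES. The calls and medians of these rows are therefore partly set by which rows passed. Of the 54 tested, 27 were called higher in FS 5ar1 than in ES and 1 lower, with a median log2 fold change of 1.18 against 0.02 over all tested genes. The counts were 29 higher and 1 lower in FS 5ar3 (median 1.20), 12 and 1 in EpiSC AF32 (median 0.61), and 2 and 1 in EpiSC AFX6 (median 0.02). Over all tested genes, the shares called lower were 27% in FS 5ar1, 28.9% in FS 5ar3, 27.9% in EpiSC AF32 and 27.2% in EpiSC AFX6, beside the shares called higher given above. The single lower row was Dio3 in each case. Without 5ar3 passage 12 the calls in FS 5ar3 fell from 30 to 19 in all. Without AF32 passage 14 or 15 or ES passage 15 those in EpiSC AF32 fell from 13 to 8, and without AFX6 passage 8 those in EpiSC AFX6 went from 3 to 5.

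Between Meg3 and the end of Mirg, 56 rows were tested, Meg3, Rian and Mirg included. The log2 fold change over ES was above 0 in 55 of these in FS 5ar1, in 56 in FS 5ar3, in 51 in EpiSC AF32 and in 30 in EpiSC AFX6. Rows low in ES could pass the filter through a line where they were high, so these numbers of rows partly reflect the filter. The summed level of the 53 microRNA rows was 55.6 ± 10.2 CPM in FS 5ar1, 58.9 ± 23.1 in FS 5ar3, 36.0 ± 4.44 in EpiSC AF32, 24.002 ± 6.44 in EpiSC AFX6 (SD, n = 3 each) and 23.6 ± 1.60 in ES (n = 4). The 14 snoRNA rows summed to 17.6 ± 4.02, 19.6 ± 5.32, 14.1 ± 1.74, 11.7 ± 0.0592 and 11.02 ± 4.64 CPM in the same order. Of the tested rows, 21, 23, 8 and 1 of 36 microRNA rows and 3, 3, 2 and 1 of 13 snoRNA rows were called higher than in ES, again in that order.

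Among single rows, Mir127, whose microRNA is shown above, had 2.71 CPM in FS 5ar1, 2.23 in FS 5ar3, 1.02 in EpiSC AF32, 0.717 in EpiSC AFX6 and 0.547 in ES. Its log2 fold change over ES was 2.33 (SE 0.48, adjusted p = 0.000517) in FS 5ar1 and 2.05 (SE 0.48, adjusted p = 0.00152) in FS 5ar3. Mir127 and Mir432, both opposite Rtl1, were named after their values were seen. Mir540 had 2.84 CPM in FS 5ar1 and 0.449 in EpiSC AFX6, a log2 fold change of 2.65 (SE 0.59, adjusted p = 0.0166). Mir370, inside Rian, had 0.720 CPM in FS 5ar3 and 0.0838 in ES (3.02, SE 0.61, adjusted p = 0.000384). Mir432 was the row with the most counts opposite Rtl1 and did not pass the test against ES in FS 5ar1 (6.68 against 4.68 CPM, adjusted p = 0.271) or FS 5ar3 (6.80 CPM, adjusted p = 0.246).

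Among the other lines the same 54 rows gave fewer calls. FS 5ar1 against FS 5ar3 gave 0 in edgeR, 0 at an unadjusted p under 0.05 and 0 by DESeq2, with a median of -0.12. Of all tested genes, 3.88% were called there. EpiSC AFX6 was called lower than FS 5ar1 in 5 rows and lower than FS 5ar3 in 8, with medians of 0.97 and 1.15 for FS over AFX6. These were 9.26% and 14.8% of the 54 rows, beside 4.13% and 9.11% of all tested genes called. Both numbers of called rows were 0 without AFX6 passage 8. The first was also 0 without 5ar1 passage 12, 1 without 5ar1 passage 14 or AFX6 passage 5, and 3 without AFX6 passage 12. The second was 1 without 5ar3 passage 12, 2 without AFX6 passage 5 and 14 without 5ar3 passage 4. EpiSC AF32 was called lower than FS 5ar1 in 4 rows and than FS 5ar3 in 2. These were 7.41% and 3.7% of the 54 rows, below the 17.2% and 16.5% of all tested genes called. Leaving out single libraries gave 0 to 2 and 0 to 9 rows, with 0 without AF32 passage 13 in both. Without the library of highest mt-Rnr2 share in each line, all 4 of these FS and EpiSC comparisons gave 0 rows, while those with ES gave 19 rows in FS 5ar1, 27 in FS 5ar3, 13 in EpiSC AF32 and 5 in EpiSC AFX6.

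**Figure D4:**
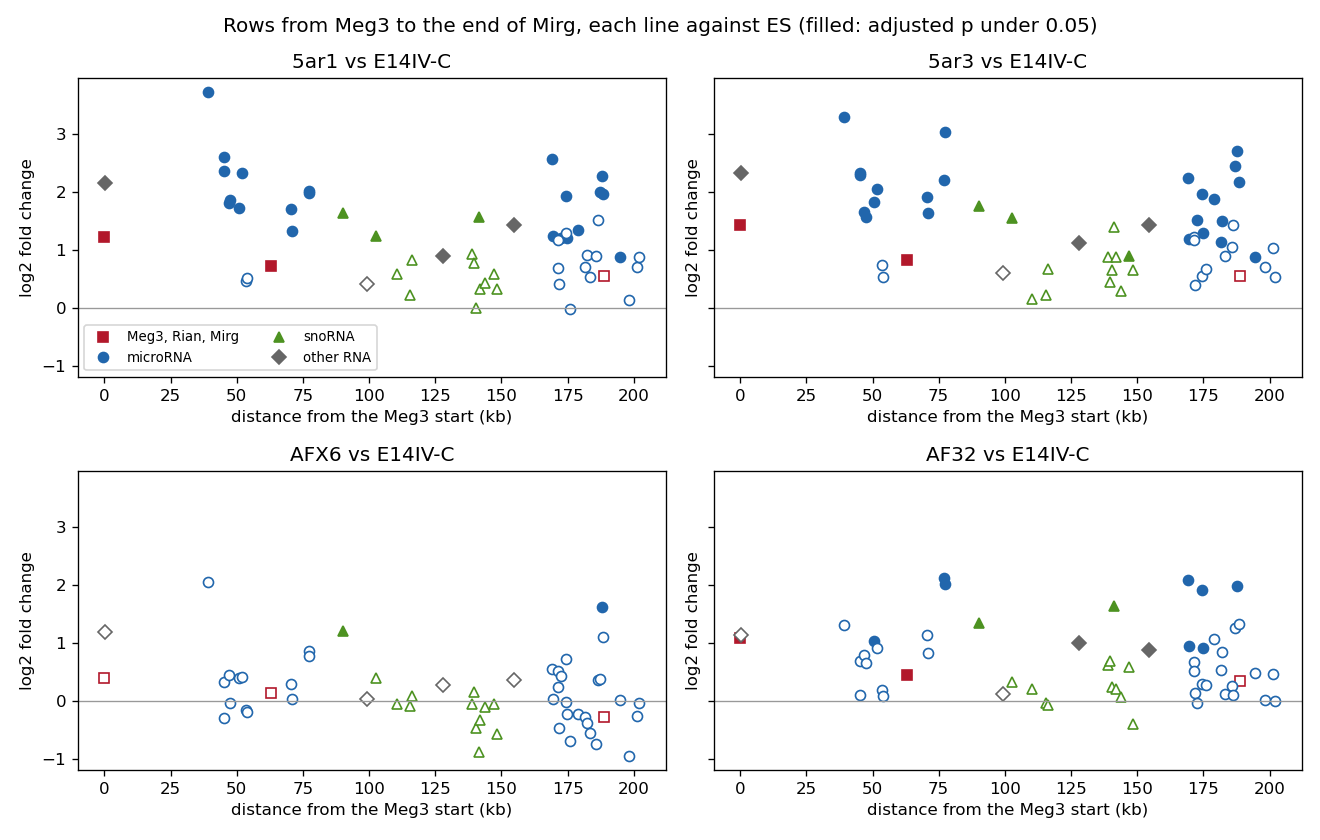
Log2 fold change over ES (vertical axis) of each tested row from Meg3 to the end of Mirg against its distance from the Meg3 start in kb, 1 panel per line; filled points had an adjusted p under 0.05. In both FS lines the points lie above 0 along the whole stretch, apart from 1 row of 5ar1, while those of EpiSC AFX6 scatter around 0 with a median of 0.03.

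Genes flanking the locus were read as a list of 18, of which 17 were tested. Against ES, 5 were called higher and 5 lower in FS 5ar1 (median -0.08), 3 and 5 in FS 5ar3 (-0.06), 5 and 4 in EpiSC AFX6 (0.00) and 3 and 7 in EpiSC AF32 (-0.18). These were 58.8%, 47.1%, 52.9% and 58.8% of the 17, near or below the 56.8%, 61%, 56.6% and 58.6% of all tested genes called. Mok, a kinase gene beyond Dio3, had 29.3 CPM in ES and 2.21 to 4.17 CPM in the other lines. Hsp90aa1, a heat shock chaperone gene on the same side, had 1832 CPM in ES and 515 to 632 CPM elsewhere. Begain, on the Dlk1 side, had 2.14 CPM in FS 5ar3 and 0.344 in ES, and Evl, an actin regulator gene, had 25.1 and 7.97 CPM. Between the FS lines, 0 of 17 were called, with 4 at an unadjusted p under 0.05 and 0 by DESeq2; 2 were called without 5ar1 passage 10.

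A list of 19 genes that keep imprints or act at this locus was tested whole. In all 4 lines more of them were called lower than higher against ES: 11 lower and 4 higher in FS 5ar1, 11 and 5 in FS 5ar3, and 12 and 3 in each EpiSC line, with medians from -0.97 to -0.93. In all, 78.9% of the list was called in FS 5ar1 and in each EpiSC line and 84.2% in FS 5ar3, where 56.6% to 61% of all tested genes were called. Dppa3, a protector of imprints in the zygote, had 24.2 CPM in ES and at most 0.0124 CPM elsewhere. Dnmt3l, a cofactor of DNA methylation in germ cells, had 7.44 CPM in ES and 0.0777 to 0.226 elsewhere. Aff3, which binds the methylated region of this locus, had 0.647 CPM in ES and 15.8 to 27.9 elsewhere, and Dnmt3b, a de novo DNA methyltransferase, had 60.7 CPM in ES and 787 to 1625 elsewhere. Zfp57, the zinc finger protein that guards methylated imprints, was named after its values were seen: it had 224 CPM in ES and 38.8 to 46.9 CPM in the other lines. Between the FS lines 0 of 19 were called, with 4 at an unadjusted p under 0.05 and 1 by DESeq2 or without 5ar1 passage 10.

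Imprinted genes of other clusters were read as a list of 25, all tested. Against ES, higher and lower calls were 14 and 6 in FS 5ar1 (median 1.90), 16 and 4 in FS 5ar3 (3.28), 15 and 4 in EpiSC AFX6 (1.58) and 15 and 4 in EpiSC AF32 (2.11). These were 80%, 80%, 76% and 76% of the list, beside 56.8%, 61%, 56.6% and 58.6% of all tested genes called. H19, a maternal noncoding RNA, had 0.117 CPM in ES and 139 in FS 5ar3, 46.9 in FS 5ar1, 48.2 in EpiSC AFX6 and 5.84 in EpiSC AF32. Kcnq1ot1, a paternal noncoding RNA, had 118 CPM in ES and 0.170 to 0.968 CPM in the other lines. Between the FS lines, which differed in Dlk1, 3 of the 25 (12%, beside 3.88% of all tested genes) were called, all lower in 5ar1. These were Cdkn1c, a cell cycle inhibitor gene (31.7 against 71.8 CPM, adjusted p = 0.00727), Zim1 (0.340 against 3.24 CPM, adjusted p = 0.028) and Kcnq1ot1 (0.195 against 0.968 CPM, adjusted p = 0.0108). The count ranged from 1, without 5ar1 passage 14 or 5ar3 passage 4, to 5, without 5ar1 passage 10, and was 0 without the library of highest mt-Rnr2 share in each line.

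Time in culture was tested as a slope per passage common to the lines. None of the 4 tested genes was called, with 0 at an unadjusted p under 0.05 and 0 by DESeq2, where 0.00539% of all tested genes (1 gene) were called. The slope in log2 per passage was 0.07 for Meg3 (SE 0.04, adjusted p = 0.593), -0.03 for Rian (SE 0.02, adjusted p = 0.663), 0.04 for Mirg (SE 0.03, adjusted p = 0.736) and 0.00 for Dlk1 (SE 0.05, adjusted p = 0.985). The lines span unequal passages, from 13 to 15 in AF32 to 12 to 20 in ES. A common slope can miss drift that runs in opposite directions in different lines. Meg3, for example, fell over the passages of FS 5ar1 (213, 195 and 136 CPM) and rose over those of EpiSC AF32 (125, 175 and 195 CPM). Slopes of single lines were not tested.

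The genes whose levels followed each member most closely were named by Pearson r of log2 CPM over the 16 libraries, among 18551 tested genes. For Dlk1 these were Rmst (r = 0.97), a neural noncoding RNA, Slc1a2 (0.97), a glutamate transporter gene, Fgfr3 (0.96), an FGF receptor gene, Trim32 (0.95), and Sox9 (0.94), a transcription factor gene. Sox9 had 8.93 ± 0.347 CPM in FS 5ar3 (SD, n = 3), 3.38 ± 0.811 in EpiSC AF32, 1.80 ± 0.765 in FS 5ar1, 0.767 ± 0.423 in EpiSC AFX6 and 0.0219 ± 0.0253 in ES (n = 4). Rmst had 5.67 ± 0.459 CPM in FS 5ar3 and none in ES. For Meg3 the closest were Fam193b (0.93), Mir1188 of the same locus (0.92), Gm27000 (0.92), RP24-333B11.5 (0.92) and Unk (0.91). For Rian they were Zfp266 (0.95), Gm37663 (0.93), 6720489N17Rik (0.92), the snoRNA row Gm22205 of the same locus (0.91) and Dll1 (0.91), and for Mirg they included Mir1193 (0.85), Mir3070b (0.83) and Mir540 (0.83) of the same locus. The names depend on the measure. By Spearman's rho none of the 5 named for Dlk1 was among its 5 closest, which were Eml1 (0.97), Hmgb3 (0.95), Ptn (0.95), AW551984 (0.95) and Cdkn1c (0.94), while 3 of 5 were shared for Meg3, 3 for Rian and 1, Mir432, for Mirg. The points share lines, scaling and, for rows inside a host RNA, possibly reads.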

How the data were processed

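Bulk total RNA libraries were analysed from a table of raw read counts per gene, deposited by the authors. Per the labels' protocols, RNA was extracted with Trizol and a PureLink column and libraries were made with the NEXTflex Rapid Directional RNA-seq kit. The submitters' processing notes name Trim Galore, TopHat2 2.1.0, featureCounts 1.5.0 and mm10, and their settings and annotation release are not given in the sources used here. The genes and lists were chosen with earlier results of these data known. Columns of the table whose names fit none of the labelled samples, 6 in number, were left out. No pair of libraries of a line agreed within sampling noise (lowest chi-square per degree of freedom 8.40).

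Counts of all 16 libraries, with total counts from 22069338 to 33290250, were fitted in edgeR 4.0.16 (R 4.3.3) with filterByExpr by line, TMM scaling and a robust quasi-likelihood model with 1 mean per line. The passage model added a common slope. P-values were adjusted over all 18555 tested genes within a comparison by Benjamini-Hochberg. CPM on TMM-scaled library sizes was computed from the deposited counts. Log2 values for correlations used a prior count of 2. Exact intervals for ratios of counts cover counting error only. Alternatives were DESeq2 size factors, total counts without TMM, DESeq2 1.42.0, no filter, a mean of at least 1 CPM, only the libraries compared, passage as a covariate or on a log2 scale, mitochondrial genes left out, and each library left out. Coordinates and lengths came from GENCODE M21 (GRCm38), where 33860 identifiers of the table were found. Promoters and mature microRNAs came from RefSeq on GRCm38.p6. The named list genes were at most 4 called genes per list and comparison with the largest change, and the closest genes were the 5 of highest r for each gene with a mean of at least 1 CPM. The fit was tested on simulated counts of 18119 genes with 200 changed: for FS 5ar1 against FS 5ar3 it recovered 44% of genes changed 2-fold and 85% of those changed 4-fold, with 2.27% false calls, and for FS 5ar3 against ES 54% and 95%, with 6.88% false calls, above the 5% aimed at. The 200 genes had means above 1 CPM and changed in FS 5ar3 alone, with all other means equal between lines. These shares therefore do not describe the real comparison of FS 5ar3 with ES, where 61% of genes were called, or genes of lower level.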

Additional observations from a re-analysis of the deposited data

Results flagged for a closer look

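In the 4 ES libraries, single values stood apart from the rest by a gap, taken as a share of the range, above Dixon's 95% critical value for 4 samples. Chance flags about 1 in 20 groups of normally distributed values, a rate that does not hold for counts near 0. For Dlk1 the gap was 1, since 3 libraries had 0 and passage 13 had 0.0452 CPM. For Rtl1 it was also 1, with 0 in 3 libraries and 0.0425 CPM at passage 20. Each of these rests on 1 count, and the gap is always 1 when only 1 of the 4 libraries has a count. For Rian the gap was 0.832, with 683 CPM at passage 12 and 416 to 461 CPM in the other 3. This gap is one of TMM-scaled values. Before scaling, passage 12 had 9885 Rian counts, within the ES range of 9471 to 10108. Its TMM factor was 0.625, against 0.923 to 0.955 in the other ES libraries. Passage 12 also had the highest mt-Rnr2 share, 38.1%, and the part of this share in the Rian value was not tested.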

How the results depend on the processing

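Replicates are passages of 5 lines, 3 or 4 each, and counts under about 3 limit Rtl1 in all lines and Dlk1 in ES. No paired analysis was possible because replicate numbers follow accession order and pair no samples across lines. Under total counts without TMM, the median log2 fold change of all tested genes over ES moved to 0.41 in FS 5ar1, 0.35 in FS 5ar3, 0.25 in EpiSC AFX6 and 0.29 in EpiSC AF32, from 0.02 or less. Mirg was then called over ES in FS 5ar1 (0.96, adjusted p = 0.00542), FS 5ar3 (0.92, adjusted p = 0.00728) and EpiSC AF32 (0.66, adjusted p = 0.0465), which is 0.55, 0.56 and 0.37 above that median.

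Of the 5 genes, FS 5ar1 against EpiSC AFX6 gave 1 call under total counts and under DESeq2, instead of 0. FS 5ar3 against EpiSC AFX6 gave 4 under DESeq2 and 1 without the libraries of highest mt-Rnr2 share, instead of 2. EpiSC AFX6 against EpiSC AF32 gave 1 (Mirg) with only the libraries compared, instead of 0. EpiSC AFX6 against ES gave 2 under total counts and 3 without the libraries of highest mt-Rnr2 share, instead of 1. Leaving out each library gave 0 to 1 for FS 5ar1 and 1 to 3 for FS 5ar3 against EpiSC AFX6, 1 to 2 for EpiSC AFX6 and 2 to 3 for EpiSC AF32 against ES, and 3 to 4 for each FS line against ES. The share of all tested genes called was computed for the main fit only. Whether a setting called more or fewer genes in general is therefore not shown, here or for the rows and lists above. The cause of these changes was not tested.

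Reversed log2 values were all of uncalled differences. For Mirg, FS 5ar1 against FS 5ar3 gave 0.0438 under total counts, 0.0027 with only the libraries compared and 0.0517 without the libraries of highest mt-Rnr2 share, EpiSC AFX6 against ES gave 0.0141 under total counts and 0.0119 without those libraries, and FS 5ar3 against EpiSC AF32 gave -0.0263 without them. For Meg3, FS 5ar1 against EpiSC AF32 gave -0.11 without them. With passage as a covariate, Rian gave 0.0564 for FS 5ar1 against FS 5ar3 and -0.034 for EpiSC AFX6 against ES. The Dlk1 passage slope was 0.0087 under total counts. Leaving out each library gave, for FS 5ar1 against FS 5ar3, -0.26 to 0.24 for Mirg, -0.20 to 0.0477 for Rian, -0.54 to 0.19 for Meg3 and -0.0498 to 0.67 for Dio3. For FS 5ar1 against EpiSC AF32 it gave -0.0268 to 0.31 for Meg3 and -0.0198 to 0.45 for Mirg, for FS 5ar3 against EpiSC AF32 -0.0567 to 0.66 for Meg3, for FS 5ar1 against EpiSC AFX6 -0.15 to 0.18 for Dlk1, and -0.0239 to 0.0246 for the Dlk1 slope. Over the settings other than left-out libraries, 368 values of the 4 tested genes kept their direction and side of the threshold, 1 lost a call, 13 gained one and 10 reversed. The fit with a mean of at least 1 CPM tests fewer genes. Against ES it called 14, 17 and 8 rows of the region, in either direction, in FS 5ar1, FS 5ar3 and EpiSC AF32. The number of region rows that passed this filter was not recorded. These counts therefore do not show whether the share of rows called changed from the main fit. The passage slope was not run with only the libraries compared or with passage as a covariate.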
